A study of Tupaia belangeri chinensis with 36 samples.

Results

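The cortical plate (CP) of the fetal Chinese tree shrew (Tupaia belangeri chinensis) was compared between embryonic day 28 (E28) and E37 in 7 of the 36 libraries of the series. Members were chosen by their labels as the E28 CP (2 libraries) and the E37 CP. At E37 there was 1 library of the undivided plate, 2 of its inner half-layer (CPi) and 2 of its outer one (CPo), and these 5 made 1 group. The labels name no treatment or transgene for any group. The fetal brains were frozen, cryosectioned and Nissl stained, the layer was cut out with a laser microdissection microscope, and mRNA was sequenced. The labels do not say which fetus a library number stands for, or whether a library holds tissue of several fetuses, so p-values measure a spread between libraries. That spread was estimated within all 18 groups of stage and layer in the model (34 libraries), not from these 7 libraries alone. The 5 E37 libraries carry only 3 numbers. The comparison asks how the transcripts of the CP changed from the early to the middle stage of neurogenesis.

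The CP is the layer in which newborn excitatory neurons settle after they have migrated outward through the intermediate zone (IZ), which lies beneath it. Deep-layer neurons arrive first, and neurons of the upper layers pass them to settle nearer the marginal zone (MZ), the outermost layer, which holds the Cajal-Retzius cells. Within the plate, neurons grow axons and dendrites and begin to make synapses. The inner part of the plate therefore holds older neurons than the outer part.

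The annotation used for these counts names a feature in 1 of 3 main ways. Most reads fell on features with a TSDBGID number, with 98.1% to 98.4% of each library's total, and the sources used here pair no gene symbol with these numbers. The others are noncoding transcripts named after a host gene, either intergenic ones (LINC-SYMBOL-n) or antisense ones (SYMBOL-AS-n), and the genes named in what follows are these hosts. A value for PLXNA4-AS-9 is a value of an antisense transcript at PLXNA4 and not of PLXNA4 mRNA. The strand setting of the counting is not given in the sources used here, so reads of an antisense feature and of its host cannot be told apart.

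The 7 libraries held 24378435 to 39074989 counts on features, 54.0% to 56.9% of all lines counted. CPM is the count scaled to the same TMM-adjusted library total in every library. Only the correlations between libraries used CPM scaled to the library total without the TMM adjustment. On log2(CPM + 1) the 2 E28 libraries correlated at r = 0.986 and the 5 E37 libraries at 0.987 to 0.995. Pairs of an E28 and an E37 library lay between 0.972 and 0.979 (correlations across features, which are not replicates). Libraries of a group differed by more than counting noise, with a chi-square statistic per degree of freedom of 62.0 to 86.5. Every pair within a stage thus correlated more closely than any pair across stages.

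Of 26780 features tested, 1338 (5.00%) were higher and 1131 (4.22%) lower in the E37 CP at an adjusted p under 0.05 (edgeR quasi-likelihood test, Benjamini-Hochberg adjustment over all features tested). The median log2 fold change was 1.50 among those that rose and -1.18 among those that fell. All 5 E37 libraries lay above both E28 libraries for 1281 of the features that rose, and below both for 1047 of those that fell. These features were called on the same libraries, so their separation adds no support to the calls. The share of all features tested that separate in this way is not given here. The 2 kinds of feature differed. Among TSDBGID features 1238 of 15896 rose (7.79%) and 925 fell (5.82%), whereas among LINC and AS features 98 of 10774 rose (0.910%) and 204 fell (1.89%). The noncoding features were far less abundant, with a median over the tested features of 0.0824 CPM for LINC and 0.122 CPM for AS against 10.4 CPM for TSDBGID. With 1 E28 library left out, 633 or 720 features rose and 621 or 534 fell. When E37 libraries of the same number were summed, which leaves 3 samples at E37, 1231 rose and 591 fell, of which 91 and 73 were LINC or AS features.

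**Figure D1:**
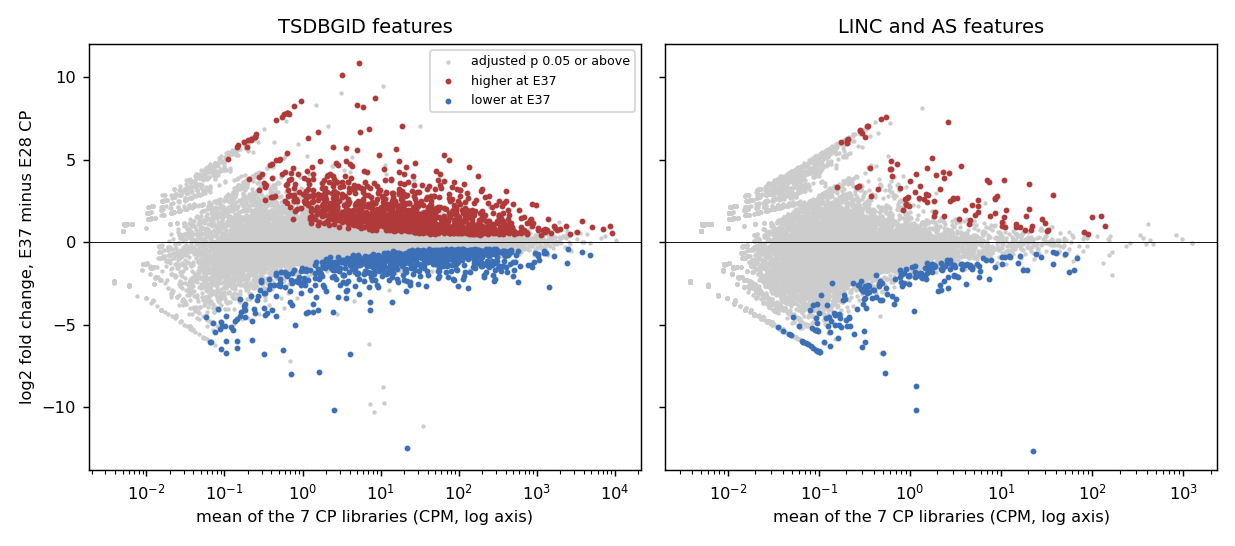
Log2 fold change from the E28 CP (2 libraries) to the E37 CP (5 libraries) against the mean CPM of the 7 libraries on a log axis, 1 point a feature, for TSDBGID features on the left and LINC and AS features on the right; coloured points passed an adjusted p of 0.05. The 1238 TSDBGID features that rose and 925 that fell spread over the whole range of abundance, and most of the 98 and 204 noncoding ones lie at low CPM, where only large changes passed.

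The largest changes were of features present at 1 stage and all but absent at the other. LINC-VAMP3-1, an intergenic transcript near VAMP3, which encodes a vesicle fusion protein, stood at 60.3 and 96.7 CPM in the E28 libraries, 0.0349 CPM in the undivided E37 CP, 0 and 0 in the CPi and 0.0453 and 0 in the CPo (adjusted p = 4.73e-11). It was detected with at most a trace in each E37 library. The same feature was between 55.1 and 84.0 CPM in the IZ at E28 and 0 CPM in all 3 libraries of the IZ at E37, and between 52.6 and 73.9 CPM in the MZ at E28 and between 0 and 0.0576 CPM in the MZ at E37. TSDBGID.17859 behaved alike, at 58.8 and 93.3 CPM in the E28 libraries, 0 CPM in the undivided E37 CP, 0.148 and 0.0397 in the CPi and 0 and 0 in the CPo (adjusted p = 4.61e-09). A further TSDBGID feature, TSDBGID.8301, was at 20.0 and 24.1 CPM at E28 and between 0.631 and 2.94 CPM at E37 (adjusted p = 3.03e-05). In the other direction TSDBGID.13453 had no count at E28 and stood at 1.67 to 14.3 CPM in the 5 E37 libraries, at least 155-fold higher than a floor of 3 counts over both E28 libraries. TSDBGID.25147 was at 0.0423 and 0 CPM in the E28 libraries, 1.15 CPM in the undivided E37 CP, 13.0 and 8.85 in the CPi and 21.9 and 14.4 in the CPo, with the undivided plate far below the sublayers. Its adjusted p of 0.0167 rose to 0.107 or 0.168 without 1 or the other E28 library. In all, 34 of the features that rose had no count in either E28 library, 12 of them noncoding, and 21 of those that fell had none in the 5 E37 libraries, 17 of them noncoding.

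Transcription factors of cortical neuron identity gave the most called features of the 19 lists of host genes. On this list 8 of 138 features tested rose (5.80%) and 11 fell (7.97%), beside 0.910% and 1.89% of all LINC and AS features. The list holds factors that set the layer, area or projection type of excitatory neurons. Its median log2 fold change was 0, against -0.230 over all LINC and AS features tested. Without the first E28 library 2 rose and 6 fell, and without the second 7 and 4.

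POU3F3, which encodes a POU factor of upper-layer neurons, had the most changed features of any host: 5 of its 17 tested rose and none fell. LINC-POU3F3-22 was the clearest of them, at 0.0423 and 1.26 CPM in the E28 libraries, 11.4 CPM in the undivided E37 CP, 5.94 and 11.8 in the CPi and 8.19 and 9.79 in the CPo (log2 fold change 3.75, SE 0.56, adjusted p = 4.48e-05). LINC-POU3F3-23 was at 0.0423 and 0.511 CPM at E28 and between 0.816 and 4.28 CPM at E37 (adjusted p = 0.00520). The most abundant, LINC-POU3F3-1, was at 11.1 and 14.7 CPM in the E28 libraries, 27.7 CPM in the undivided E37 CP, 15.2 and 27.4 in the CPi and 26.3 and 30.7 in the CPo (log2 fold change 0.97, adjusted p = 0.0173), so its lowest E37 library lay just above E28. LINC-POU3F3-5 (0.211 and 1.02 CPM at E28 and between 0.927 and 3.25 CPM at E37) and LINC-POU3F3-12 (0 and 0.0269 CPM at E28 and between 0.0742 and 1.15 CPM at E37) also rose, with adjusted p = 0.0260 and 0.0165, and the lowest E37 library of LINC-POU3F3-5 lay below its higher E28 library. LINC features of 1 host may be pieces of 1 transcript, so these 5 may not be independent. Without the first E28 library the calls of LINC-POU3F3-1, LINC-POU3F3-5, LINC-POU3F3-12 and LINC-POU3F3-23 were lost (adjusted p = 0.215, 0.317, 0.143 and 0.0904), and those of LINC-POU3F3-1 and LINC-POU3F3-12 were also lost without the second (adjusted p = 0.0534 and 0.0994). LINC-POU3F3-22 kept its call without either.

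Both tested features of NFIB, a nuclear factor I gene of deep-layer neurons and glia, fell. LINC-NFIB-5 was at 1.52 and 1.75 CPM in the E28 libraries, 0 CPM in the undivided E37 CP, 0.111 and 0.159 in the CPi and 0 and 0 in the CPo (adjusted p = 2.23e-04). LINC-NFIB-3 was at 2.03 and 1.29 CPM at E28 and between 0 and 0.668 CPM at E37 (adjusted p = 0.00667, and 0.0746 without the first E28 library). Other falls of the list included 1 feature each named after SOX5, FEZF2, FOXP4, SOX4, NFIA and TSHZ3. SOX5-AS-7 lies at a gene of deep-layer neurons (5.11 and 1.37 CPM at E28 and between 0.290 and 1.78 CPM at E37, adjusted p = 0.0421), whose groups overlapped and whose call was lost without the first E28 library (adjusted p = 0.640). LINC-FEZF2-1, named after a factor of corticospinal neurons, fell from 0.465 ± 0.239 CPM (SD, n = 2) to 0.0471 ± 0.0862 CPM (SD, n = 5; adjusted p = 0.0468, and 0.0975 without the second E28 library). FOXP4-AS-3 fell from 1.20 ± 0.215 to 0.211 ± 0.0891 CPM (adjusted p = 0.00365). ETV1-AS-1, named after a factor of layer V neurons, rose from no count at E28 to between 0.280 and 1.39 CPM (adjusted p = 0.0178, and 0.115 or 0.167 without 1 or the other E28 library).

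**Figure D2:**
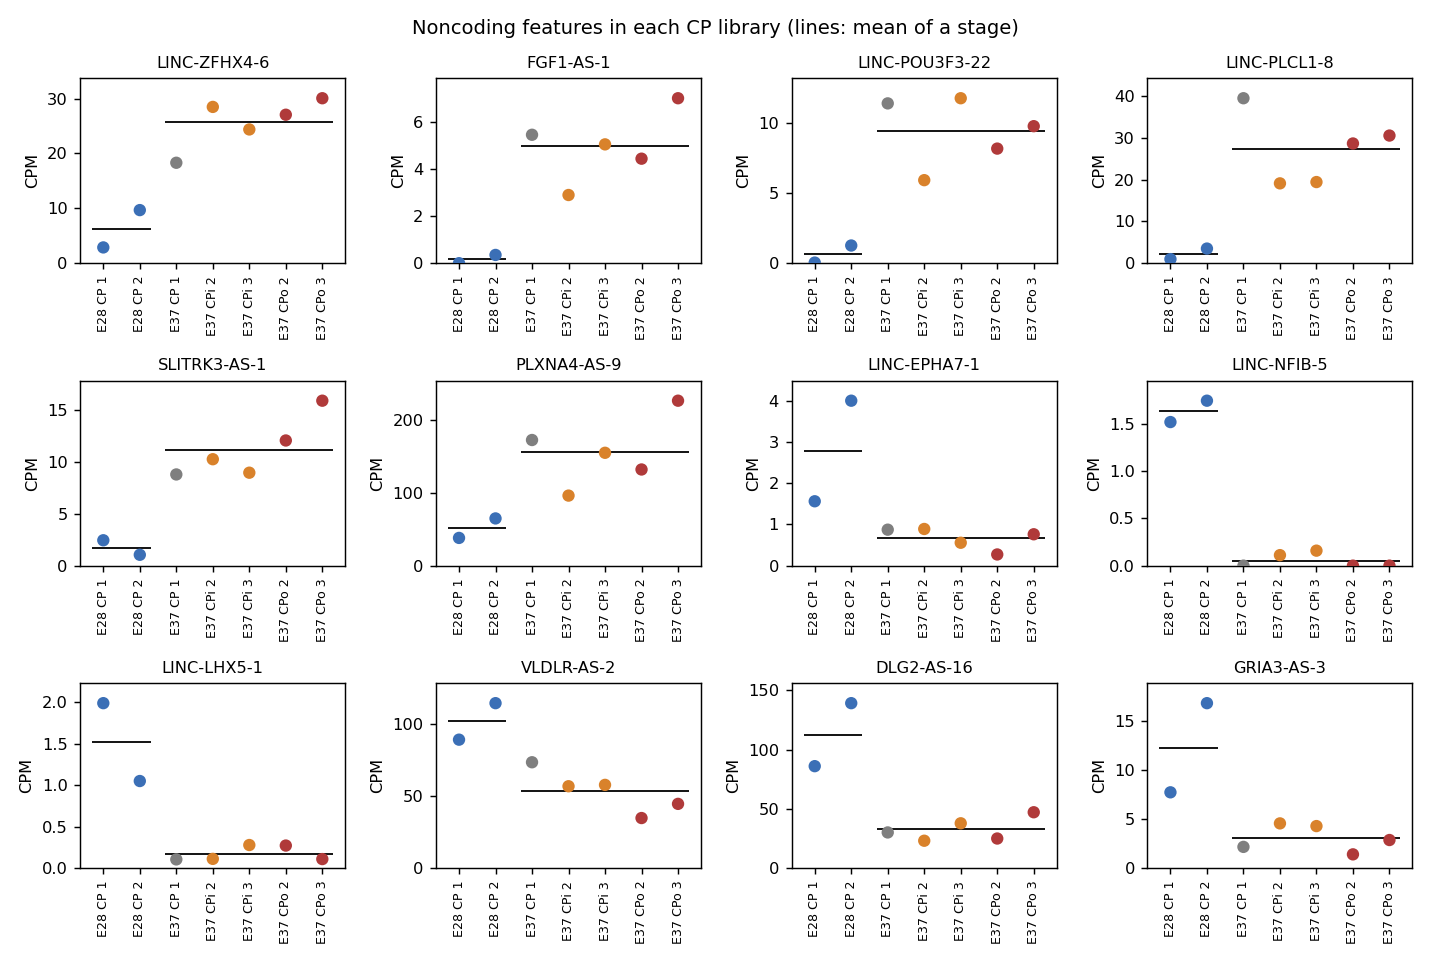
CPM of 12 noncoding features in each of the 7 CP libraries, with blue points for the E28 CP, grey for the undivided E37 CP, orange for the CPi, red for the CPo, and a line at the mean of each stage; each panel starts at 0. In every panel the 5 E37 points lie on 1 side of both E28 points.

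Homeobox genes, which share POU3F3 and TSHZ3 with the former list among others, had 9 of 118 features higher (7.63%) and 3 lower (2.54%). Of the 9, 5 were the POU3F3 features. Without the first E28 library 2 features of the list rose and 2 fell, and without the second 7 rose and 1 fell. LINC-ZFHX4-6, named after a large homeobox and zinc finger factor of developing neurons, was at 2.87 and 9.68 CPM in the E28 libraries, 18.3 CPM in the undivided E37 CP, 28.5 and 24.4 in the CPi and 27.1 and 30.1 in the CPo (log2 fold change 2.00, SE 0.42, adjusted p = 0.00356; adjusted p = 0.0704 without the first E28 library). LINC-LHX5-1, named after a LIM homeobox gene of Cajal-Retzius cells, was at 1.99 and 1.05 CPM in the E28 libraries, 0.105 CPM in the undivided E37 CP, 0.111 and 0.278 in the CPi and 0.272 and 0.109 in the CPo (log2 fold change -3.13, SE 0.56, adjusted p = 7.75e-04). It stood between 74.3 and 120.4 CPM in the MZ at E28 and between 31.5 and 66.4 CPM in the MZ at E37 (log2 fold change -0.99, adjusted p = 0.277). ZEB2-AS-1 was at 2.54 and 3.55 CPM at E28 and between 0.629 and 1.87 CPM at E37 (adjusted p = 0.0468), with its call lost without either E28 library. Among SOX genes, 2 of 44 features rose (4.55%) and 3 fell (6.82%), beside 0.910% and 1.89% of all LINC and AS features. Without the first E28 library 1 rose and 1 fell, and without the second 2 rose and 1 fell. Among the rises, SOX9-AS-1, named after a gene of radial glia and astrocytes, was at 0.254 and 0.457 CPM at E28 and between 1.22 and 2.82 CPM at E37 (adjusted p = 0.00558, and 0.101 without the first E28 library).

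Features named after genes the study stained or used as markers gave few calls. None of the 6 tested features of SOX2, the marker of neural progenitors, passed the threshold, nor did any of the 3 of RELN, the signal of Cajal-Retzius cells, or the 1 of POU3F2. LINC-DAB1-7, named after the adaptor that relays that signal in migrating neurons, was at 0.423 and 0.323 CPM in the E28 libraries, 0.0349 CPM in the undivided E37 CP, 0.0371 and 0 in the CPi and 0 and 0 in the CPo (log2 fold change -4.97, adjusted p = 0.0764), and it passed in 2 of the 16 alternatives that tested it. No feature named after TBR1 was annotated, and the 1 named after SCN2A did not pass the filter on low counts. The highest SOX2 feature, LINC-SOX2-2, stood at 0.517 ± 0.464 CPM (SD, n = 2) at E28 and 0.609 ± 0.385 CPM (SD, n = 5) at E37, a level at which the spread between libraries exceeded the difference.

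Features named after synaptic adhesion molecules moved only upward among those called: 5 of 98 rose (5.10%) and 0 fell, with a median log2 fold change of 0.165. These molecules join the membranes of the axon and the dendrite at a nascent synapse. SLITRK3-AS-1, at SLITRK3, a postsynaptic organiser of inhibitory synapses, was at 2.45 and 1.05 CPM in the E28 libraries, 8.80 CPM in the undivided E37 CP, 10.3 and 8.97 in the CPi and 12.1 and 15.9 in the CPo (log2 fold change 2.67, SE 0.38, adjusted p = 2.46e-05). LINC-SLITRK3-1 was at 0.211 and 0.108 CPM at E28 and between 2.26 and 3.26 CPM at E37 (adjusted p = 0.00256). FLRT2-AS-1 (3.84 and 3.52 CPM at E28 and between 10.3 and 23.0 CPM at E37, adjusted p = 0.0102), NLGN4X-AS-2, at a neuroligin gene (0.169 and 0.323 CPM at E28 and between 0.965 and 3.76 CPM at E37, adjusted p = 0.00497), and SLITRK2-AS-1 (0 and 0.108 CPM at E28 and between 0.119 and 1.04 CPM at E37, adjusted p = 0.0354) made up the rest. Only SLITRK3-AS-1 of the 5 held without either E28 library: LINC-SLITRK3-1 was lost without the second (adjusted p = 0.0785), NLGN4X-AS-2 without the first (adjusted p = 0.0959), and FLRT2-AS-1 and SLITRK2-AS-1 without either. With the first E28 library left out 2 of the list rose and 1 fell, and with the second left out 2 rose.

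Postsynaptic scaffolds and receptors included features that fell. DLG2-AS-16, at DLG2, which encodes the scaffold PSD-93, was at 86.1 and 139 CPM in the E28 libraries, 30.1 CPM in the undivided E37 CP, 23.1 and 37.8 in the CPi and 25.0 and 47.2 in the CPo (log2 fold change -1.79, SE 0.40, adjusted p = 0.00660), and all 5 E37 libraries lay below E28. GRIA3-AS-3, at an AMPA receptor subunit gene, was at 7.73 and 16.8 CPM in the E28 libraries, 2.17 CPM in the undivided E37 CP, 4.56 and 4.29 in the CPi and 1.40 and 2.87 in the CPo (adjusted p = 0.00835). GLRB-AS-3, at the glycine receptor beta subunit gene, was at 3.80 and 4.76 CPM at E28 and between 0.860 and 1.99 CPM at E37 (adjusted p = 0.00733). All 3 calls rested on the second E28 library: without it the adjusted p was 0.138, 0.250 and 0.103. Over all LINC and AS features 1.89% fell and 0.910% rose, and the counts of these lists stayed near that background. Of 69 receptor features 2 fell (2.90%) and 0 rose. Of 72 features of synaptic vesicle release and scaffolds 2 fell (2.78%) and 1 rose (1.39%). The 1 that rose was LINC-CPLX1-1, named after complexin, which clamps vesicle fusion (2.54 and 1.80 CPM at E28 and between 4.53 and 7.01 CPM at E37, adjusted p = 0.0226), and it missed the threshold without either E28 library.

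Among voltage-gated channels 2 of 113 features rose (1.77%) and 1 fell (0.885%), near the 0.910% and 1.89% of all LINC and AS features. LINC-KCNV1-1, named after a silent potassium channel subunit, was at 0.0845 and 0.215 CPM at E28 and between 1.20 and 2.62 CPM at E37 (adjusted p = 0.0386). KCND3-AS-3, at the gene of an A-type potassium channel, was at 1.27 and 1.61 CPM at E28 and between 2.26 and 7.64 CPM at E37 (adjusted p = 0.0402). Neither passed without 1 or the other E28 library.

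Axon guidance genes gave 3 features higher (2.83%) and 4 lower (3.77%) of 106, beside 0.910% and 1.89% of all LINC and AS features. With either E28 library left out, 1 rose and 1 fell. PLXNA4-AS-9 lies at PLXNA4, the gene of a receptor for semaphorins, and stood at 38.1 and 64.9 CPM in the E28 libraries, 173 CPM in the undivided E37 CP, 96.3 and 155 in the CPi and 132 and 227 in the CPo. Its means were 51.5 ± 18.9 CPM (SD, n = 2) at E28 and 157 ± 48.5 CPM (SD, n = 5) at E37 (log2 fold change 1.58, SE 0.26, adjusted p = 1.49e-04), and its call held without either E28 library (adjusted p = 0.0178 and 3.51e-04). Ephrin receptor genes went both ways. EPHA5-AS-2 was at 8.58 and 11.0 CPM at E28 and between 13.9 and 26.7 CPM at E37 (adjusted p = 0.0458, lost without either E28 library). LINC-EPHA7-1 was at 1.56 and 4.01 CPM at E28 and between 0.272 and 0.890 CPM at E37 (adjusted p = 0.0112, and 0.381 without the second E28 library). Features of neuronal migration genes gave 1 call among 50 (2.00%), near the background. It was VLDLR-AS-2, which fell and is described with the IZ.

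Secreted factors, matrix proteins and cadherins each gave 1 feature that rose. FGF1-AS-1, at a fibroblast growth factor gene, was at 0 and 0.349 CPM in the E28 libraries, 5.45 CPM in the undivided E37 CP, 2.89 and 5.04 in the CPi and 4.44 and 7.00 in the CPo (log2 fold change 4.63, SE 0.80, adjusted p = 2.65e-04). LINC-CDH12-1, named after a classical cadherin of neurons, was at 0.169 and 0.215 CPM in the E28 libraries, 4.72 CPM in the undivided E37 CP, 1.67 and 3.38 in the CPi and 3.26 and 5.55 in the CPo (adjusted p = 0.00121). ADAMTS19-AS-1, at a matrix protease gene, was at 0.0423 and 0.0269 CPM at E28 and between 0.779 and 1.16 CPM at E37 (adjusted p = 0.0108; 0.0872 and 0.143 without 1 or the other E28 library). On the lists they stood for 1 of 77, 1 of 62 and 1 of 78 features that rose, shares close to the background. FGF1-AS-1 and LINC-CDH12-1 also rose in the IZ (adjusted p = 0.0103 and 5.25e-04) and in the MZ (adjusted p = 0.0284 and 0.0355). ADAMTS19-AS-1 also rose in the IZ (adjusted p = 0.0338), while its log2 fold change of 3.17 in the MZ did not pass the threshold. Solute carriers (3 higher and 2 lower of 169) and zinc finger proteins (5 and 4 of 321) likewise stayed near the background. Without the first E28 library none of either list rose. LINC-SLC16A7-1, named after a monocarboxylate transporter gene, was at 1.23 and 4.79 CPM at E28 and between 7.43 and 14.8 CPM at E37 (adjusted p = 0.0146, and 0.256 without the first E28 library). SLC40A1-AS-2, at the gene of the iron exporter, was at 6.00 and 6.48 CPM at E28 and between 1.47 and 4.14 CPM at E37 (adjusted p = 0.0302, lost without either E28 library). ZNF638-AS-1 was at 2.92 and 5.16 CPM at E28 and between 1.11 and 2.69 CPM at E37 (adjusted p = 0.0468, and 0.558 without the second).

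**Figure D3:**
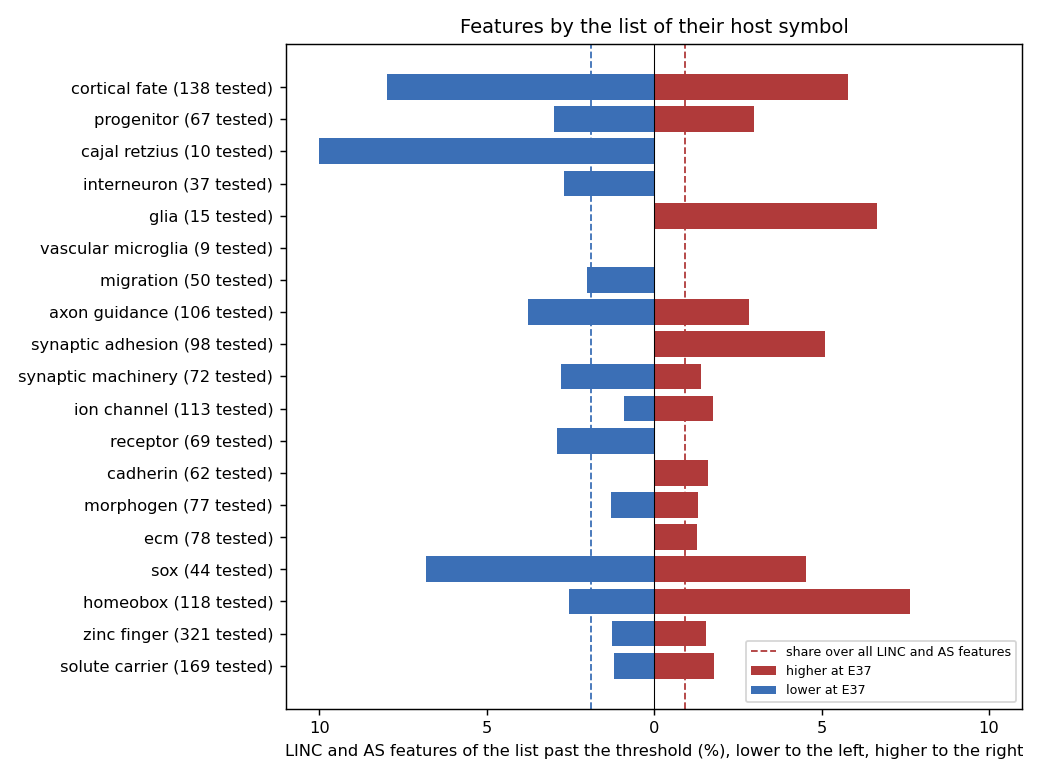
Percent of the tested LINC and AS features of each list of host genes that were higher (red, to the right) or lower (blue, to the left) in the E37 CP; dashed lines mark the 0.910% and 1.89% of all LINC and AS features. Among lists of at least 44 features the longest bars belong to cortical fate, homeobox, SOX and synaptic adhesion genes, and the bars of the lists with 10 and 15 features stand for 1 feature each.

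Lists of other cell types held few called features. The progenitor shares were 2.99% each way, beside 0.910% higher and 1.89% lower over all LINC and AS features. Progenitor genes had 2 higher and 2 lower of 67 (0 and 0 without the first E28 library, 1 and 1 without the second), interneuron genes 0 and 1 of 37, astrocyte and oligodendrocyte genes 1 and 0 of 15, genes of vessels, meninges and microglia 0 and 0 of 9, and Cajal-Retzius genes 0 and 1 of 10. The glial feature was AQP4-AS-1, at the water channel of astrocytes (0.380 and 0.134 CPM in the E28 libraries, 1.19 CPM in the undivided E37 CP, 0.371 and 1.31 in the CPi and 3.03 and 3.45 in the CPo; adjusted p = 0.0233), and its stages overlapped. It also rose in the MZ (log2 fold change 7.71, adjusted p = 1.22e-04). Its call was lost without either E28 library (adjusted p = 0.0570 and 0.272). In bulk tissue, fewer cells of a type and less RNA per cell cannot be told apart.

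The remaining noncoding features with the largest changes belonged to no list. LINC-PLCL1-8, named after an inactive phospholipase C gene, was at 0.972 and 3.49 CPM in the E28 libraries, 39.5 CPM in the undivided E37 CP, 19.1 and 19.4 in the CPi and 28.6 and 30.5 in the CPo (log2 fold change 3.54, SE 0.49, adjusted p = 1.98e-05). It kept its call without either E28 library, and with LINC-PLCL1-7 and LINC-PLCL1-12, both without a count at E28, it made 3 of 6 tested features of the host that rose. ADCYAP1-AS-2, at the gene of the neuropeptide PACAP, was at 0.296 and 0.0269 CPM in the E28 libraries, 0.978 CPM in the undivided E37 CP, 2.86 and 2.82 in the CPi and 3.85 and 5.22 in the CPo (log2 fold change 4.23, SE 0.74, adjusted p = 3.19e-04). LINC-VSTM2A-2 was at 0.0845 and 0.0538 CPM in the E28 libraries, 2.34 CPM in the undivided E37 CP, 3.30 and 2.46 in the CPi and 2.22 and 1.89 in the CPo (log2 fold change 5.11, SE 0.86, adjusted p = 1.93e-04). Others that rose were LINC-STT3B-54 (0.0423 and 0 CPM at E28 and between 1.08 and 5.48 CPM at E37), LINC-ABHD5-4 (0.211 and 0 CPM at E28 and between 1.05 and 3.08 CPM at E37), LRRC8B-AS-3 (0.0423 and 0.0269 CPM at E28 and between 0.407 and 1.45 CPM at E37), LINC-PRL-5 (0.0423 and 0.0269 CPM at E28 and between 0.476 and 1.40 CPM at E37) and KLHL14-AS-2 (0.0423 and 0 CPM at E28 and between 0.140 and 1.54 CPM at E37), with adjusted p = 2.65e-04, 0.00323, 0.0141, 0.0295 and 0.0303. The calls of the last 3 were lost without either E28 library, and that of LINC-ABHD5-4 without the second (adjusted p = 0.0863). CALD1-AS-4 had no count at E28 and 0.210 to 1.63 CPM at E37 (adjusted p = 0.0212, lost without either E28 library), at least 16.3-fold higher than the floor of 3 counts over both E28 libraries.

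On the falling side, IGHV4-28-AS-1 was at 3.76 and 4.38 CPM at E28 and had no count in any E37 CP library, at least 195-fold lower with a floor of 3 counts over the 5 libraries. CATSPER1-AS-1 (1.99 and 1.67 CPM at E28 and between 0 and 0.0397 CPM at E37) and LINC-SUCLG1-21 (2.70 and 5.27 CPM at E28 and between 0 and 0.0794 CPM at E37) were near 0 at E37. All 3 also fell in the IZ and the MZ, with adjusted p between 9.21e-05 and 0.0259. LINC-RPL6-190, named after a ribosomal protein gene with many near-identical copies, fell from 1.65 and 5.05 CPM to at most 0.362 CPM (adjusted p = 4.53e-05). How reads of such copies were shared out was not tested, and its level is uncertain. SSTR1-AS-1, at a somatostatin receptor gene, was at 3.46 and 7.69 CPM at E28 and between 0.399 and 1.67 CPM at E37 (adjusted p = 0.00185, and 0.0918 without the second E28 library). TRIM54-AS-2 (1.23 and 2.50 CPM at E28 and between 0.0397 and 0.508 CPM at E37), LINC-RWDD3-5 (7.73 and 2.07 CPM at E28 and between 0.0699 and 1.72 CPM at E37) and LINC-YD021-8 (0.845 and 2.80 CPM at E28 and between 0.0453 and 0.516 CPM at E37) (1 of 3 features of 6 tested that fell for that host) complete the 12 largest falls with LINC-VAMP3-1, LINC-LHX5-1 and the 2 NFIB features. The calls of TRIM54-AS-2 and LINC-YD021-8 were lost without the second E28 library (adjusted p = 0.0798 and 0.320) and that of LINC-RWDD3-5 without the first (adjusted p = 0.201).

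The layer cut out was checked with features that were higher in 1 layer than another at E42, in libraries outside the comparison. Features of the inner and outer subventricular zones, which hold dividing progenitors, summed to 10410 and 10619 CPM at E28 and 5485 to 7175 CPM at E37 in the CP (1735 features). Those of the IZ summed to 6945 and 7947 CPM at E28 and 1774 to 3784 CPM at E37 (642 features), so the sums of every E37 library lay below those of both E28 libraries on these 2 lists. Single features went both ways, beside 5.00% higher and 4.22% lower over all features tested. On the former list 99 were higher (5.71%) and 115 lower (6.63%), with a median log2 fold change of 0. On the IZ list 48 were higher (7.48%) and 72 lower (11.2%), with a median of -0.05. Features of the MZ summed to 3884 and 4033 CPM at E28 and 3108 to 5545 CPM at E37 (1158 features), and the stages overlapped. Of these features 109 were higher (9.41%) and 74 lower (6.39%), with a median log2 fold change of 0.21. The part of these layers in the result was not tested. With all features of the 3 lists taken out, 1178 features rose and 963 fell.

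At E42, 135 features were higher in the CPi than in the CPo and 48 were higher in the CPo. Between the E37 sublayers, 6 of the 135 and 0 of the 48 passed the test. The CPi list summed to 14897 and 14979 CPM in the E28 CP, 13326 and 13131 CPM in the E37 CPi and 7293 and 9342 CPM in the E37 CPo. The undivided E37 plate was between its 2 sublayers, at 10139 CPM. The CPo list summed to 4243 and 4455 CPM at E28, 4677 and 5512 CPM in the E37 CPi and 7544 and 7522 CPM in the E37 CPo. On both lists the E28 plate stood nearer to the E37 CPi than to the CPo. Of the CPo list 23 features rose from E28 to E37 (47.9%) and 4 fell (8.33%), while the CPi list was split at 32 and 32 (23.7% each way). Over all features tested 5.00% rose and 4.22% fell.

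**Figure D4:**
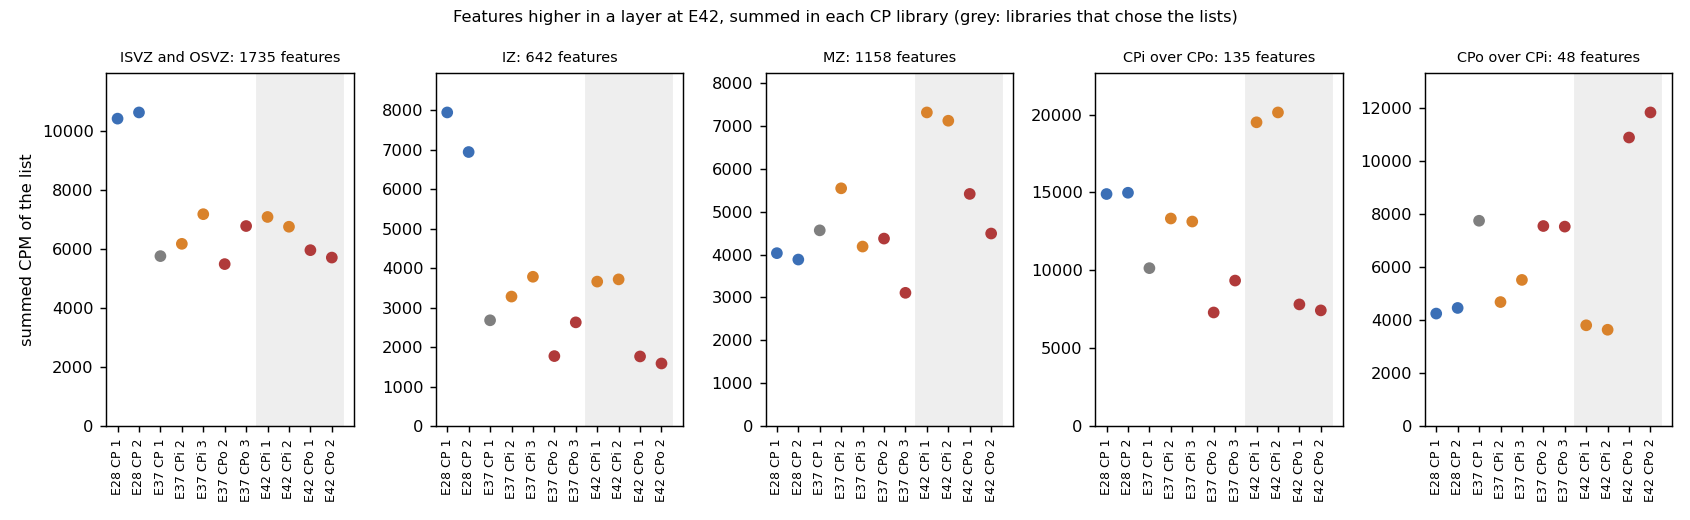
Summed CPM of features higher in a layer at E42, in each CP library of E28 and E37 (blue E28, grey undivided E37 CP, orange CPi, red CPo) and, on the grey ground, in the E42 libraries that helped to choose the lists; each axis starts at 0. The progenitor and IZ lists are lower in all 5 E37 libraries than in both E28 libraries, and the sums of the CPi list are higher in both CPi libraries of E37, those of the CPo list in both CPo libraries.

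Between the CPi and the CPo at E37, 7 features differed (0.0261%), all TSDBGID features and all higher in the CPi, and 850 had an unadjusted p under 0.05. The count was 1 to 9 with 1 library left out, 35 by the DESeq2 Wald test and 0 in a model of only the 7 CP libraries.

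The IZ (2 libraries at E28 and 3 at E37) and the MZ (2 and 2) were compared in the same model to see which changes differed between layers. From E28 to E37, 1319 features rose (4.93%) and 792 fell (2.96%) in the IZ, and 843 rose (3.15%) and 267 fell (0.997%) in the MZ. Of the 1338 features that rose in the CP, 575 rose in the IZ and 360 in the MZ, 168 in both, and 17 fell in the IZ. Of those named above, LINC-POU3F3-22 (adjusted p = 0.0149 and 0.0206) and NLGN4X-AS-2 (0.00558 and 0.0256) were among those that also rose in the IZ and the MZ. PLXNA4-AS-9 (adjusted p = 0.0208) and LINC-ZFHX4-6 (0.0254) also rose in the IZ, and SLITRK3-AS-1 in the MZ (0.0207). For none of these features did the CP change differ from that of either layer at the threshold. Of the 1131 that fell, 360 fell in the IZ and 133 in the MZ, 80 in both, and 20 rose in the IZ. Libraries with the same number deviated together across layers of a stage (r = 0.251 for the E28 CP and IZ and 0.246 for the E28 CP and MZ, across features), so the layers are not independent samples of a stage.

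**Figure D5:**
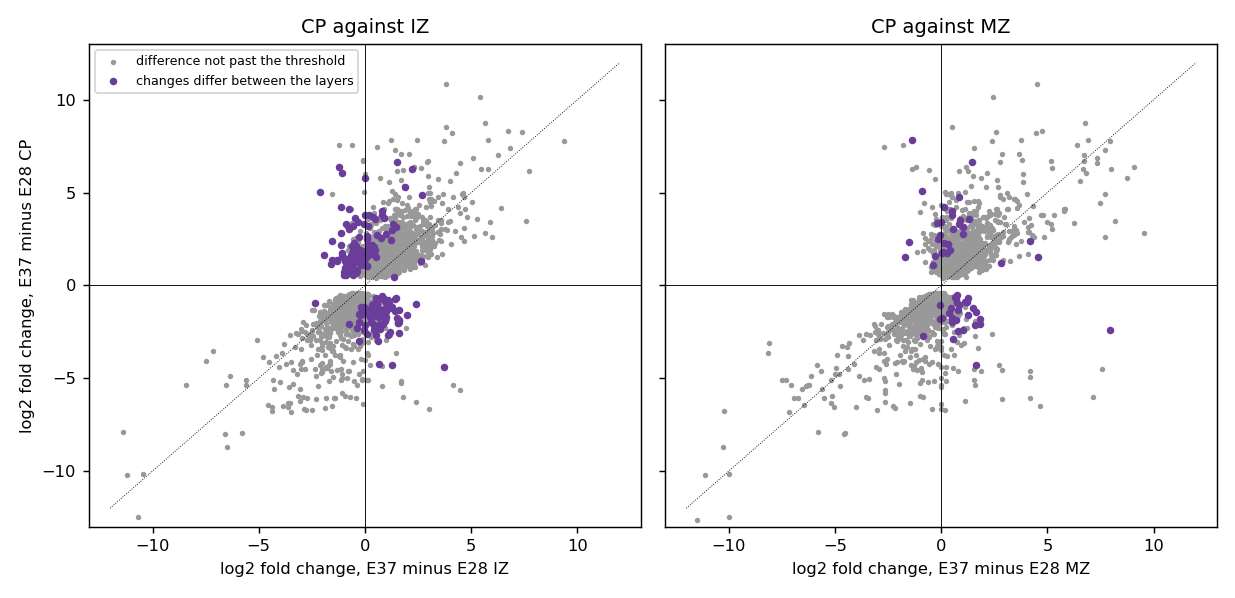
Log2 fold change from E28 to E37 in the CP (vertical) against that in the IZ (left) or the MZ (right), 1 point for each feature called in the CP, with purple points where the 2 changes differed at an adjusted p under 0.05 and a dotted line where they are equal. Most points lie on the side of the same sign; the purple ones, 127 and 83 features that rose or fell in the CP for the IZ and 30 and 30 for the MZ, lie far from the dotted line.

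The change differed between the CP and the IZ for 338 features (1.26%), 177 with the CP change above and 161 below, and between the CP and the MZ for 91 (0.340%), 27 above and 64 below. Both counts depended on the fit. They were 703 and 391 by the DESeq2 Wald test, and 141 to 408 and 60 to 183 with 1 CP, IZ or MZ library left out. Of the 338, 17 were LINC or AS features.

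VLDLR-AS-2 went opposite ways in the 2 layers. VLDLR is a reelin receptor that guides migrating neurons. In the CP it was at 89.3 and 115 CPM in the E28 libraries, 73.6 CPM in the undivided E37 CP, 56.9 and 57.9 in the CPi and 34.8 and 44.7 in the CPo (log2 fold change -0.97, SE 0.18, adjusted p = 7.41e-04). It was between 24.6 and 25.0 CPM in the IZ at E28 and between 44.4 and 54.5 CPM in the IZ at E37, where it rose (log2 fold change 1.00, adjusted p = 0.00359). The difference of the changes passed at an adjusted p of 2.84e-04 and in 16 of 16 fits with 1 library left out, and in the MZ the log2 fold change was -0.75 (adjusted p = 0.0635). The fall in the CP by itself missed the threshold without the second E28 library (adjusted p = 0.0535).

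ADCYAP1-AS-2 rose in the CP and not detectably in the IZ, where it was between 1.26 and 3.30 CPM at E28 and between 0.752 and 1.42 CPM at E37 (log2 fold change -1.14, adjusted p = 0.262). Its changes differed at an adjusted p of 0.00148, again in 16 of 16 fits with 1 library left out. AAGAB-AS-1 and LINC-AAGAB-1, at a gene of vesicle coat assembly, were the 2 tested features of their host, and both rose in the CP. AAGAB-AS-1 was at 1.10 and 2.20 CPM in the E28 libraries, 14.3 CPM in the undivided E37 CP, 4.01 and 7.66 in the CPi and 14.7 and 16.6 in the CPo (log2 fold change 2.63, SE 0.45, adjusted p = 2.39e-04). LINC-AAGAB-1 was at 1.56 and 0.538 CPM at E28 and between 6.97 and 20.9 CPM at E37 (adjusted p = 4.37e-04). In the IZ their log2 fold changes were -0.27 and 0.00, and in the MZ 2.18 and 4.70. The CP and IZ changes differed at adjusted p = 0.0105 and 0.0219, and both features were lowest in the 2 CPi libraries among those of E37. In the MZ both rose (adjusted p = 0.00668 and 9.81e-04).

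Other differences from the IZ were of features that fell in the CP and had a positive log2 fold change in the IZ that did not pass the test. TSHZ3-AS-1, at a zinc finger and homeobox gene of cortical projection neurons, was at 15.8 and 35.8 CPM in the E28 libraries, 10.5 CPM in the undivided E37 CP, 11.6 and 17.0 in the CPi and 6.38 and 10.6 in the CPo (log2 fold change -1.24, adjusted p = 0.0253), beside 1.17 in the IZ (adjusted p of the difference = 0.0241). Its stages overlapped, and without the second E28 library its fall missed the threshold (adjusted p = 0.633). LINC-HS3ST4-2, named after a heparan sulfate sulfotransferase gene, was at 4.99 and 13.4 CPM in the E28 libraries, 1.75 CPM in the undivided E37 CP, 2.67 and 4.73 in the CPi and 0.317 and 0.943 in the CPo (adjusted p = 0.00313; adjusted p of the difference from the IZ = 0.0156), with the CPo below the CPi.

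Against the MZ, LINC-VSTM2A-2 rose in the CP while it was between 0.978 and 6.17 CPM in the MZ at E28 and between 1.65 and 2.19 CPM in the MZ at E37 (adjusted p of the difference = 0.00597). PFKP-AS-1, at the gene of a glycolytic enzyme, rose in the CP (5.07 and 4.06 CPM at E28 and between 8.10 and 19.0 CPM at E37, adjusted p = 0.0134) and in the IZ (log2 fold change 3.38, adjusted p = 3.50e-05) and fell in the MZ (log2 fold change -1.70, adjusted p = 0.0315). Its change differed between the CP and the MZ at an adjusted p of 0.00960. EPB41L4A-AS-3 fell in the CP and the IZ (in the CP 67.6 and 69.2 CPM at E28 and between 29.5 and 48.5 CPM at E37, adjusted p = 0.0141), where its log2 fold change of -0.71 was set against 0.69 in the MZ (adjusted p of the difference = 0.0279). With 1 library left out in turn, the differences of AAGAB-AS-1 and LINC-AAGAB-1 passed in 14 and 12 of 16 fits, those of TSHZ3-AS-1 and LINC-HS3ST4-2 in 12 and 13, and those of LINC-VSTM2A-2, PFKP-AS-1 and EPB41L4A-AS-3 from the MZ in 13, 14 and 11. These features were chosen for naming after their values were seen, apart from VLDLR-AS-2, ADCYAP1-AS-2 and LINC-VSTM2A-2.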

How the data were processed

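RNA of laser-microdissected cortical layers was sequenced as mRNA libraries in 36 samples of the fetal Chinese tree shrew. As deposited, each file holds raw counts per feature, which the authors made with HISAT2, SAMtools and HTSeq on the TS_3.0 genome, and the strand setting is not given in the sources used here. The HTSeq lines that count reads outside features were removed. Replicate 2 of the ventricular zone at E28 and at E42 held identical counts, and both libraries were left out. The other 34 libraries formed 18 groups of stage and layer.

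Counts were fitted with edgeR 4.0.16 in R 4.3.3 (TMM scaling, filterByExpr with a minimum count of 10, robust quasi-likelihood fit, 16 residual degrees of freedom). The E37 CP was the mean of its groups weighted by their libraries, 0.2 for the undivided CP and 0.4 each for the CPi and the CPo, and it was set against the E28 CP. Unless another model is named, every adjusted p in the text for a feature comes from this fit, or from the same fit without the library named. Benjamini-Hochberg adjustment in this fit was over the 26780 features tested of 76871. A fit without a library filtered the features anew and adjusted over those it tested (26710 without E28 CP replicate 1 and 26737 without replicate 2). Fitted log2 fold changes use a prior count of 0.125. The SE is the log2 fold change divided by the square root of its F statistic. Changes in the IZ and the MZ, and the differences between layers, are contrasts of the same fit. The E42 lists of the progenitor layers, IZ and MZ hold features that passed the test against the CP at E42 with a log2 fold change above 2, and those of the CPi and CPo all features that passed between the sublayers.

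The members, the lists of host genes and the tests were chosen with earlier results of these data known. Named features were the 12 noncoding features with the largest rise and the 12 with the largest fall (called, at least 0.5 CPM, no overlap), the called feature of each of 19 lists with the smallest adjusted p in each direction, the 2 TSDBGID features each way with the largest change (at least 5 CPM), every tested feature of 7 genes the study stained or named, and the hosts with the most called features. Other features named from the lists, hosts and layer differences were chosen after their values were seen. Alternatives were another scaling, no filter, DESeq2 1.42.0, other sets of libraries, replicate blocks (limma 3.58.1), summed libraries and each library left out. On simulated counts with the 2 against 5 libraries of the comparison (25196 features), 37 of 100 features changed by 1 on the log2 scale and 79 of 100 changed by 2 were recovered, with 5 false calls among 121. The changed features were drawn only from those with a mean of at least 0.5 CPM in the 7 CP libraries. Recovery below that level was not tested, and the median tested LINC and AS features lay there, at 0.0824 and 0.122 CPM. No sequences were used here. Some called features are not reported here.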

Additional observations from a re-analysis of the deposited data

Results flagged for a closer look

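The change from E28 to E37 differed between layers for 3 of the named features. That of LINC-VSTM2A-2 in the CP was above that in the MZ by 6.02 on the log2 scale, and the difference passed the threshold in 13 of 16 fits with 1 library left out, with a highest adjusted p of 0.0618. That of ADCYAP1-AS-2 in the CP was above that in the IZ by 5.37, and that of VLDLR-AS-2 differed by -1.97 (CP minus IZ), both in 16 of 16 such fits (edgeR quasi-likelihood test).

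A single library lay far from the others of its group for 2 features among the 5 E37 CP libraries. For ZEB2-AS-1 the gap between CPi replicate 3 (1.87 CPM) and the next library took 0.746 of the range, and for TSDBGID.8301 the gap below CPo replicate 2 (2.94 CPM) took 0.729, above the critical value of Dixon's test. Chance gives such a gap in about 1 group in 20.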

How the results depend on the processing

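No alternative reversed the direction of a named feature that passed, and 17 of these 46 did so in all 17 alternatives. With E28 replicate 1 left out 28 of the 46 passed, with replicate 2 left out 26, and with either left out 19. The DESeq2 Wald test gave 2010 features higher, 153 LINC and AS features higher, 703 that differed between the CP and the IZ, 391 between the CP and the MZ and 35 between the CPi and the CPo. A model of only the 7 CP libraries, which tested 18665 features, gave 713 higher and 521 lower, 46 and 73 of LINC and AS, and 0 between the CPi and the CPo. Summing libraries of one stage and number gave 591 lower, 73 of them LINC or AS (91 of these kinds were higher), and 56 that differed from the MZ. A log2 fold change above 1 left 639 lower. Without a filter, 658 differed from the IZ, 375 from the MZ and 69 between the CPi and the CPo. With all 36 libraries these counts were 184, 42 and 3, and with the CP libraries of a stage as 1 group 181 and 59. The cause of these shifts was not tested.

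With 1 library left out, 633 to 1324 features were higher and 534 to 1127 lower, and 30 to 89 and 54 to 200 of LINC and AS. Between the CP and the IZ 141 to 408 differed, between the CP and the MZ 60 to 183, and between the CPi and the CPo 1 to 9. The lowest counts of higher and lower features came without an E28 CP library (633 and 621 without replicate 1, 720 and 534 without replicate 2). The 129 lower LINC and AS features without the undivided E37 CP were also under the main count by over 1.5 times. Counts against the IZ were lowest without E28 IZ replicate 1 (185) or 2 (141) or E28 CP replicate 2 (192). Counts against the MZ moved to 60 without E28 CP replicate 1 or E37 MZ replicate 3, and to 156 and 183 without E28 MZ replicates 1 and 2. Between sublayers 3 remained without CPi replicate 2, and 2 and 1 without CPo replicates 2 and 3.

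The samples share only a number, since the labels do not say what it marks. A replicate block as a fixed term gave 2056 higher and 1733 lower, 335 lower LINC and AS features, 517 that differed from the IZ, 150 from the MZ and 12 between sublayers. A replicate block within stage as a random effect (estimated correlation 0.188) gave 1369 higher and 1103 lower, and 238 that differed from the MZ. Same-numbered CPi and CPo libraries deviated together at r = 0.271 across features. LINC-LHX5-1 (adjusted p = 0.0603) and SOX9-AS-1 missed the threshold under the random effect. The medians of the noncoding features were 0.0824 CPM for LINC and 0.122 CPM for AS, and the part of depth in their calls was not tested.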
